A study of Mus musculus with 12 samples.

Results

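The comparison described here set 3 Kat7 knockout libraries against 3 control libraries of mouse thymic epithelial cells (TECs), out of 12 libraries in the series. It covered 25867 genes with a symbol, of the 27179 in the count table. Of these, 17731 had enough counts to be tested, and Kat7, named genes with large or firmly supported changes, and lists of genes by function are described. All cultures were thymic lobes of C57BL/6 embryos at stage E15.5. A first step of 4 to 5 days used 2'-deoxyguanosine at 1.35 mM to remove thymocytes, and the next 3 days used 10 µg/mL of an agonist antibody to RANK, the receptor that drives maturation of medullary TECs. Knockout cultures carried Kat7 fl/fl alleles and a tamoxifen-inducible Cre recombinase expressed from the Rosa locus (RosaCre-ERT2), and they received tamoxifen. Control cultures received tamoxifen too and carried a genotype labelled control. Its alleles are not given in the labels used here. The other libraries were wild-type cultures with DMSO or with WM-3835, a KAT7 inhibitor. The DMSO values are given beside some genes as a further level in wild-type cells and enter no test. The Rosa locus is active in most cell types, so deletion need not be limited to TECs.

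KAT7, also called HBO1, is a histone acetyltransferase. It works in a complex with a scaffold subunit of the BRPF or JADE family, which directs it to lysines of histone H3 or H4, and its marks lie over transcribed genes and replication origins. TECs form the stroma of the thymus: cortical cells select T cells that recognise self MHC, and medullary cells show developing T cells the antigens of many peripheral tissues. Medullary cells reach this state through RANK signals and the regulator AIRE, so a culture with RANK stimulation enriches for them.

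Library totals ran from 35358509 to 42985014 counts in the controls and from 27353357 to 36829303 in the knockouts. The controls were the more dispersed group: the biological coefficient of variation was 0.402 in controls, 0.266 in knockouts, 0.0982 in DMSO cultures and 0.122 in WM-3835 cultures. The libraries also differed in Xist, a long noncoding RNA made from the silenced X chromosome in females. It was at 3.04, 2.34 and 3.16 CPM (a gene's counts relative to its library's TMM-scaled total) in controls 1 to 3. In knockouts 1 to 3 it was at 1712, 1194 and 4.94 CPM. Knockout 3 was therefore the only knockout library with Xist near the level of the controls, so embryo sex and Kat7 loss are partly confounded. Of 9 listed genes of the X and Y chromosomes that mark sex, 3 rose (Xist, Eif2s3x by 0.50 and Kdm6a by 0.46) and the other 6 did not pass the test. The Y-linked gene Eif2s3y was at 91.3, 113 and 105 CPM in controls and at 32.6, 52.0 and 105 CPM in knockouts, so knockouts 1 and 2 held Xist and Y-linked RNA together. Eif2s3x lost its call without control 1, 2 or 3 or knockout 1 or 2, and Kdm6a without control 1 or 2 or knockout 1 or 2. Markers of TECs (Epcam, keratins and others, 8 genes) summed to 8878 to 9967 CPM in controls and 8992 to 9254 in knockouts, so the sorted population carried its epithelial label in both groups. Markers of fibroblasts and mesenchyme, 8 genes, summed to 127 to 196 CPM in controls and 62.5 to 85.7 in knockouts. With DMSO they summed to 58.2 to 76.0 CPM, beside the knockouts. Markers of mesothelium, 4 genes, summed to 176 to 229 and 79.7 to 116 CPM, and to 135 to 187 with DMSO. Haematopoietic markers, 11 genes, summed to 60.9 to 113 and 45.5 to 66.0 CPM, and to 44.2 to 62.3 with DMSO. Most of that sum was Lyz2, at 57.0, 85.9 and 40.2 CPM in controls and at 42.2, 24.1 and 26.5 in knockouts. It fell, and the other haematopoietic markers tested did not pass the test. Msln made up nearly all of the mesothelial sum. In bulk RNA, fewer cells of a type and less RNA per cell cannot be told apart.

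Kat7 itself (chr11:95271853-95310246, GRCm38.p6) was at 88.7, 76.4 and 75.8 CPM in the controls and at 0.607, 0.812 and 0.869 CPM in the knockouts. The DMSO cultures lay at 88.7, 85.1 and 89.3 CPM. All 3 knockout libraries were thus far below every library with an intact gene, and the log2 fold change was −6.74 (SE 0.19, n = 3 per group, adjusted p 9.1e-11). Here and below, adjusted p-values come from edgeR's quasi-likelihood test with Benjamini-Hochberg adjustment over the 17731 genes, and a gene rose or fell where it was under 0.05. They weigh the difference between the groups against the spread between these cultures. The SE given is the size of the log2 fold change divided by the square root of the test's F statistic.

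Loss of Kat7 went with 377 genes that rose and 780 that fell. These are 2.13% and 4.4% of the genes tested, together 6.53%, and they are the background against which the counts of gene lists are read. Falls made up 67.4% of all calls and were the larger changes: 351 falls and 37 rises exceeded 2-fold. The median log2 fold change was −0.92 among genes that fell and 0.50 among genes that rose, beside −0.01 over all genes tested. Genes that rose were mostly abundant, with 236 of 377 in the highest quartile of mean level and 4 in the lowest. Falls were spread more evenly, with 59, 233, 232 and 256 from the lowest to the highest quartile. The controls spanned a median of 1.84 log2 units in the lowest quartile and 0.23 in the highest. Small changes are harder to call where controls spread more, and the part of this in the counts was not tested. Protein-coding genes made up 97.1% of rises, 97.9% of falls and 90.6% of all genes tested, and 8 long noncoding RNAs were called in each direction. The median exon length of rises was 3843 bases, against 2644 over all genes tested and 2672.5 among falls. Rises had a median level of 6.43 log2 CPM, falls 4.96 and all genes tested 4.30. Neither the kind nor the length of genes was adjusted for level.

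**Figure D1:**
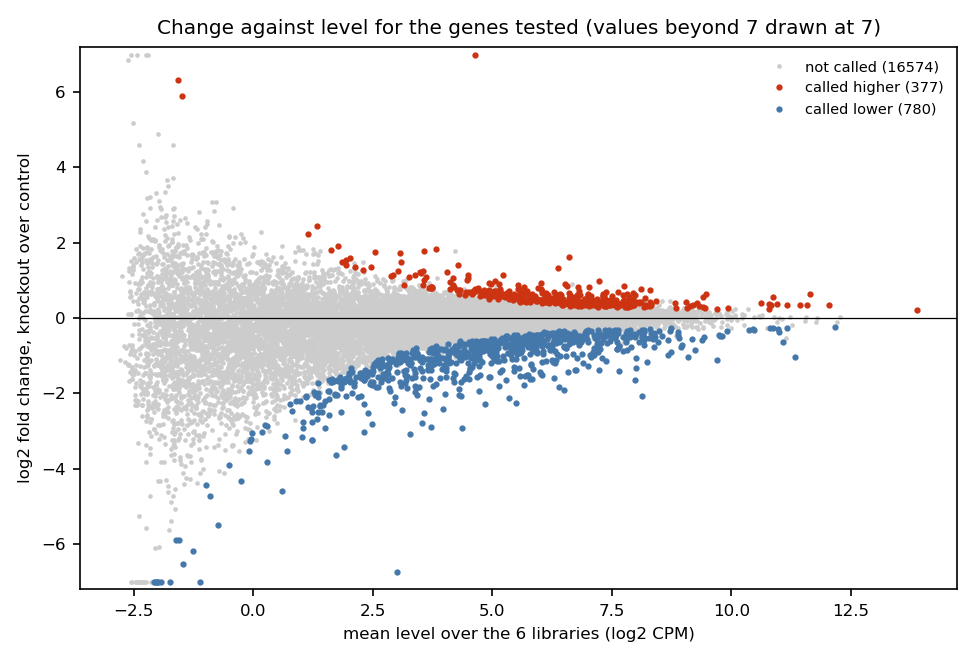
Log2 fold change, knockout over control, against mean level over the 6 libraries in log2 CPM, for each of the 17731 genes tested. Coloured points are the 377 genes that rose and the 780 that fell, and changes beyond 7 are drawn at 7. Rises lie to the right, among abundant genes, and falls reach further from 0.

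How far these calls depend on single cultures was measured by leaving out each of the 6 libraries in turn. A gene is said below to have held where its adjusted p stayed under 0.05 every time: 65 of the 377 rises and 294 of the 780 falls did so. Without knockout 1, 2 or 3 the number of rises was 140, 89 or 145, and that of falls 422, 353 or 434. Without control 1, 2 or 3 there were 274, 358 or 409 rises and 527, 666 or 751 falls. With Xist as a covariate 10 genes rose and 56 fell, and with knockout 3 as the lone knockout library 9 rose and 72 fell. In the latter fit the spread comes from the controls alone, and the lone knockout is assumed to vary like them. Of the 1157 calls 63 and 77 passed the test in these fits, while the log2 fold changes had a median ratio of 0.964 and 0.969 to those from all 6 libraries. Genes past the threshold in both included Ryr3, Npnt, Pkhd1l1, Gnao1, Skint7, Lipm and Serpinb3a among rises. Among falls they included Igfbp4, Igfbp3, Apoe, Ncf1, Il2ra, Cbr2, Ear2, Chrnd, Aqp3, Gja4, Rgs11, Scd1, Egln3, Ero1a, Fam162a, Ndrg1 and Ddit4. The other genes named here and below lost their call in at least 1 of these 2 fits.

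The spread of the controls was set beside each change. Over all genes tested, the 3 controls spanned a median of 0.48 log2 units and the 3 knockouts 0.36, and the controls spanned more in 10989 genes (62%). Control 3 was the library farthest from the other controls in 7261 genes, control 2 in 5449 and control 1 in 5021. The change exceeded the controls' range in 352 of 377 rises and 732 of 780 falls, beside 4575 of all 17731 genes tested. Rises and falls had median control ranges of 0.27 and 0.41. The groups did not overlap in 376 rises and 773 falls, beside 4717 of all genes tested. A gene that passes the test with 3 libraries per group will nearly always show both, so these counts add little to the calls. Among falls 98 genes had controls more than 1 log2 unit apart, against 9 among rises and 4546 among all 17731 genes tested. Control 1 was the highest control in 354 of the falls, control 3 in 276 and control 2 in 150. Over all genes tested the same counts were 5732, 6169 and 5830.

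**Figure D2:**
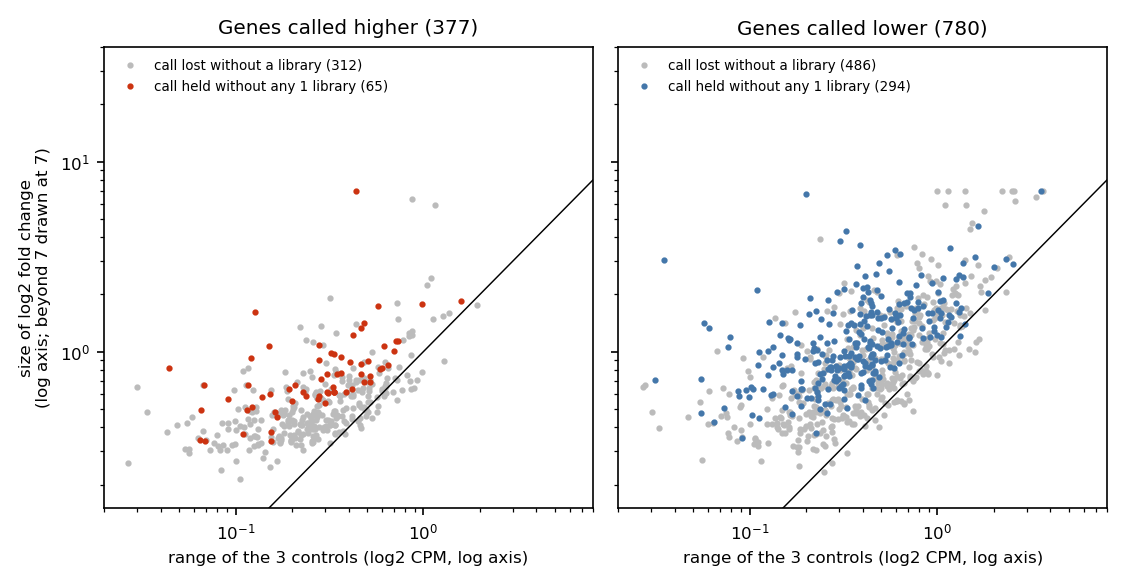
Size of the log2 fold change (vertical, log axis) against the range of the 3 controls in log2 CPM (horizontal, log axis) for genes that rose, left, and fell, right. Filled points are the 65 rises and 294 falls that held without any 1 of the 6 libraries, changes beyond 7 are drawn at 7, and the line marks equality. Most points lie above the line, and the falls reach larger control ranges than the rises.

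Among the rises, Ryr3, an intracellular calcium-release channel of the ryanodine receptor family (chr2:112631354-113217405), had the smallest adjusted p. It was at 54.4, 58.7 and 53.4 CPM in controls and at 187, 158 and 170 CPM in knockouts. The log2 fold change was 1.62 (SE 0.10, adjusted p 7.85e-07), and the groups did not overlap. That was a condition for naming the genes from here up to the gene lists, so it adds no support. The DMSO cultures were at 215, 177 and 254 CPM, overlapping the knockouts or above them. Npnt, which encodes the matrix protein and integrin ligand nephronectin (chr3:132881745-132950291), was at 46.6, 63.6 and 45.9 CPM in controls. It was at 145, 124 and 130 CPM in knockouts and at 79.0 to 89.9 CPM with DMSO. Every knockout was thus above every wild-type or control library, and Npnt rose by 1.34 log2 units (SE 0.13, adjusted p 5.36e-05).

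Other abundant genes rose by close to 1 log2 unit. Pkhd1l1, which encodes a large membrane protein related to fibrocystin, was at 92.5, 115 and 112 CPM in controls and at 205, 226 and 203 in knockouts (log2 fold change 0.98). Gnao1, the alpha subunit of the G protein Go, was at 47.4, 44.5 and 48.1 CPM in controls and at 89.5, 85.8 and 92.9 in knockouts (0.93, SE 0.10, adjusted p 0.000132). Neither gene's groups overlapped, and the controls of Gnao1 were nearly identical. In the DMSO cultures Pkhd1l1 was at 206 to 245 CPM, overlapping the knockouts, and Gnao1 at 106 to 113 CPM, above them.

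Several genes with large rises were at low levels. Serpinb3a, an inhibitor of proteases in squamous epithelia, was at 4.2, 5.79 and 3.86 CPM in controls and at 13, 14 and 19.5 in knockouts (1.73, SE 0.27, adjusted p 0.00153). Its counts are uncertain because close paralogs may share reads, and DMSO cultures held 9.18 to 16.3 CPM, above the controls and overlapping the knockouts. Lipm, a lipase of differentiated epidermis, was at 14.5, 11 and 10.2 CPM in controls and at 29.4, 30.9 and 35.6 in knockouts (1.42, SE 0.18, adjusted p 0.000441). DMSO cultures held 10.1 to 11.1 CPM of Lipm, level with the controls. These 2 genes, and the 4 above, held. Derl3, a factor of endoplasmic reticulum-associated degradation, rose by 1.49 and lost its call without knockout 1. Nexmif (1.61), Nptxr (1.53), Cass4 (1.40), Hcn2 (1.36), Kcnv1 (1.35) and Rdh5 (1.29) also rose. Each was at no more than 4.30 CPM in the controls. Each lost its call without at least 5 of the libraries in turn.

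Among the falls, Igfbp4 (chr11:99040005-99052655), a secreted carrier that binds insulin-like growth factors, had the smallest adjusted p after Kat7. It was at 196, 168 and 166 CPM in controls and at 40.4, 49.5 and 50.9 CPM in knockouts, with DMSO cultures between at 73.6 to 97.3 CPM. The groups did not overlap, as required of the named genes, and the log2 fold change was −1.92 (SE 0.11, adjusted p 7.85e-07). Apoe, the lipid carrier apolipoprotein E (chr7:19696244-19701310), was at 151, 162 and 158 CPM in controls and at 64.0, 55.6 and 56.7 in knockouts (−1.43, SE 0.10, adjusted p 2.65e-06). Ncf1, a cytosolic subunit of the superoxide-producing NADPH oxidase (chr5:134220053-134229628), was at 164, 168 and 183 CPM in controls and at 69.5, 59.4 and 70.1 in knockouts (−1.38, SE 0.10, adjusted p 4.87e-06). For both genes DMSO cultures lay between the groups and nearer to the controls, at 121 to 133 CPM for Apoe and 144 to 150 CPM for Ncf1.

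Il2ra, the alpha chain of the interleukin-2 receptor (chr2:11642792-11693194), was at 45.3, 36.5 and 42.2 CPM in controls and at 10.5, 10.1 and 9.36 in knockouts (−2.06, SE 0.16, adjusted p 1.52e-05). DMSO cultures were at 27.9 to 37.0 CPM. Cbr2, a carbonyl reductase, was at 727, 798 and 832 CPM in controls and at 363, 370 and 424 in knockouts (−1.04, SE 0.09, adjusted p 1.88e-05). It was lower still with DMSO, at 263 to 311 CPM.

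The largest falls were of genes at low levels, many of them known from other tissues. Ear2, an eosinophil-associated ribonuclease (chr14:44102654-44103531), was at 13.4, 10.5 and 10.0 CPM in controls and at 0.690, 1.14 and 0.939 in knockouts (−3.63, SE 0.35, adjusted p 5.36e-05). DMSO cultures were at 0.635 to 1.31 CPM, and members of the Ear family are similar enough in sequence to share reads. Crabp1, a cytosolic retinoic acid-binding protein, was at 5.59, 7.71 and 7.99 CPM in controls and at 0.442, 1.11 and 0.730 in knockouts (−3.24, SE 0.47, adjusted p 0.00111). Umod, which encodes the kidney protein uromodulin, was at 37.5, 15.0 and 36.1 CPM in controls and at 4.72, 4.10 and 6.71 in knockouts (−2.52, SE 0.32). Every knockout was below every control for these 3 genes, although the controls of Umod spanned 1.30 log2 units. With DMSO Umod was at 2.66 to 4.21 CPM, beside the knockouts. Chrnd, the delta subunit of the muscle acetylcholine receptor, was at 15.7, 8.80 and 13.8 CPM in controls and at 2.76, 2.29 and 1.63 in knockouts (−2.53, SE 0.33, adjusted p 0.000441).

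Prg4, the joint lubricant lubricin, shows what the control spread does to a fold change. Its controls were at 59.5, 26.1 and 14.5 CPM, 2.00 log2 units apart, and its knockouts at 3.42, 7.31 and 3.83 (−2.79, SE 0.43). The call held, but the size of the fall depends on which control is taken. Cd109, a membrane-anchored modulator of TGF-beta signalling (−2.93), the gasdermin Gsdmc3 (−2.67) and the kinase Lmtk3 (−2.58) fell from controls of 4.85 to 8.80 CPM and held. Gsdmc3 has near-identical neighbours. Siglec15 (−2.75), Sh2d5 (−2.75), Akr1b8 (−2.50) and Prss23 (−2.50) fell and lost their calls without any of several libraries. Control 1 was among them each time, and for Sh2d5 it held 13.3 CPM against 4.4 and 3.05 in the other controls.

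**Figure D3:**
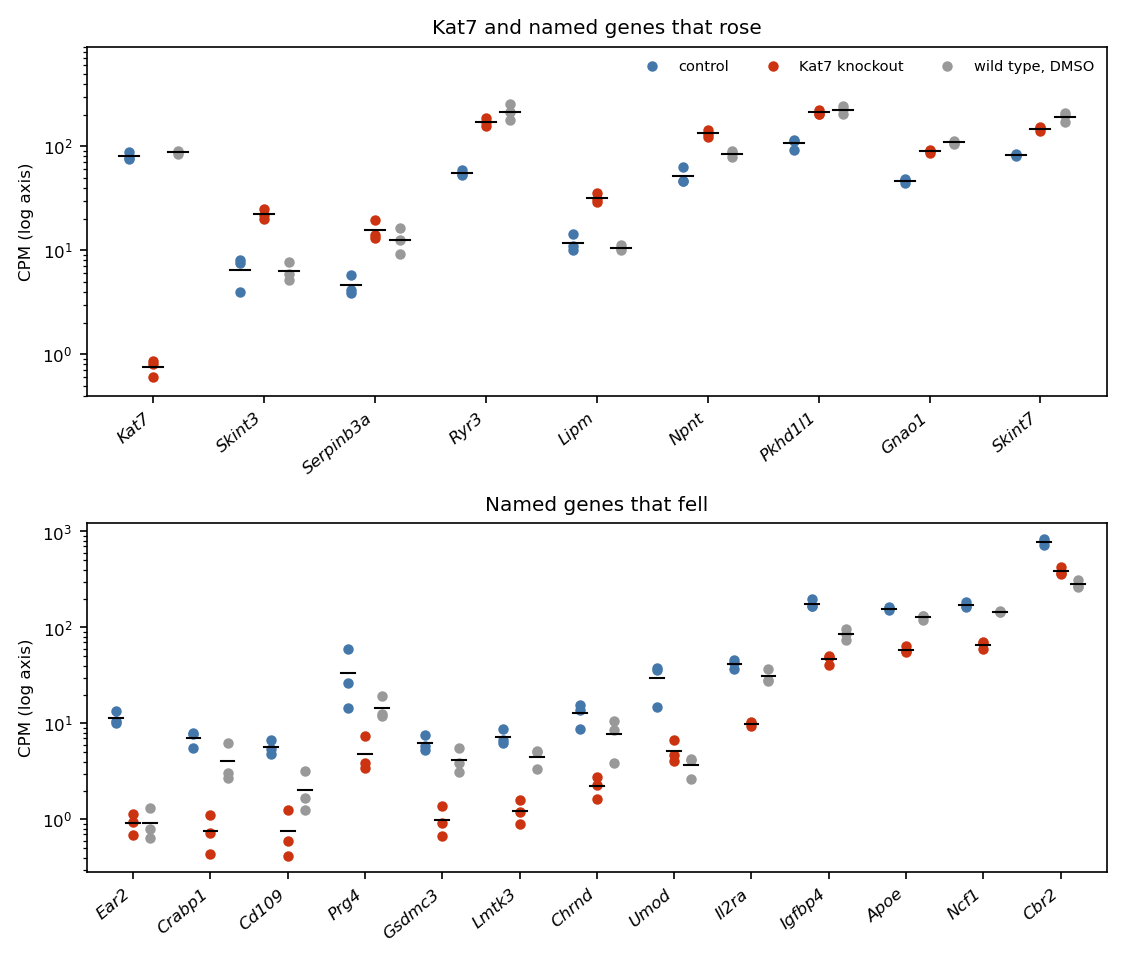
Level in CPM (log axis) of Kat7 and the named genes that held, 8 rises and 13 falls, in each control, knockout and DMSO library (1 point per culture). For the rises the knockout points lie above the control points and for the falls below them, as the choice of genes required. The DMSO points lie between the groups for Apoe and beside the knockouts for Ear2.

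The list with the most falls was that of the hypoxia response and glycolysis, written after the gene results were seen. Under low oxygen the prolyl hydroxylases (Egln genes) stop marking HIF alpha subunits for destruction, and HIF binds a short core motif near genes of glycolysis, vascular growth and survival. Of 52 genes tested, 35 fell (67.3%, beside 4.4% of all genes) and 3 rose (5.77%, beside 2.13%). The other 14 did not pass the test. The median was −0.71, beside −0.01 over all genes. Of the falls 26 held, and without knockout 2 there were 27. With Xist as a covariate 5 fell, and with knockout 3 alone 7. Among glycolytic enzymes and glucose or lactate transporters 16 of 23 fell (median −0.70), among oxygen sensors and HIF subunits 3 of 8 (−0.19), and among other targets 16 of 21 (−0.95).

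Promoter windows of 3 of these genes are shown because they were the falls with the smallest adjusted p in the list whose window, 250 bases before to 50 after the start in RefSeq on GRCm38.p6, was in the table used. Capitals mark the HIF core ACGTG or GCGTG, searched on both strands (CACGT and CACGC on the printed strand). ACGTG overlaps its own reverse complement wherever CACGTG occurs. The windows are chr12:54203825-54204124 (Egln3), chr16:36071512-36071811 (Fam162a) and chr14:45318523-45318822 (Ero1a), all on the minus strand and printed 5′ to 3′ in the direction of the gene:
Egln3: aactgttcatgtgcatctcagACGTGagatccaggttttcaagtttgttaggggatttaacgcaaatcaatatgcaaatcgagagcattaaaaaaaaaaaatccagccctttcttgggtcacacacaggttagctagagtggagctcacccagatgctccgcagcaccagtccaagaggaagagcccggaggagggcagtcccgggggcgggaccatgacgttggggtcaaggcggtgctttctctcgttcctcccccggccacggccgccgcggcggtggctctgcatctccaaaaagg
Fam162a: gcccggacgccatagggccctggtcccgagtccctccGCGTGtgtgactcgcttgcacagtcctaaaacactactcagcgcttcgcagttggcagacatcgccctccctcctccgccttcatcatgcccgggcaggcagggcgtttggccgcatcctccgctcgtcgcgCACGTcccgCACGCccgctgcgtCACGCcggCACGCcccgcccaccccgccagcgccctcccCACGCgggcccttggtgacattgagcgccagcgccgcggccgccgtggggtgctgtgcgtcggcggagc
Ero1a: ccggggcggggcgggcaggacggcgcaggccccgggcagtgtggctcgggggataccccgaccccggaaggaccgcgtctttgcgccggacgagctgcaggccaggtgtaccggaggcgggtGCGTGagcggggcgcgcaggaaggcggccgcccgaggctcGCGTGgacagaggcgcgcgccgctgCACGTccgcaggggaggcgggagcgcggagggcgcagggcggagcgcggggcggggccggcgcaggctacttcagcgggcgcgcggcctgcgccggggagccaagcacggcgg
The Egln3 window holds 1 core, that of Fam162a 6 and that of Ero1a 3. A core stood in 43.8% of all 32851 promoter windows of the table and in 53 of the 71 windows of the list's genes (74.6%). Per tested gene with a window it stood in 62% of all 13448 and in 40 of 46 of the list (87%). A match describes these letters and shows no binding. The list was made of hypoxia response and glycolysis genes, so its share of cores says nothing about the knockout. The core holds a CpG, and the shares were not adjusted for CpG content.

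The levels of these genes show how control 1 differed. Egln3, an oxygen-sensing prolyl hydroxylase that is itself a HIF target, was at 220, 134 and 125 CPM in controls and at 42.6, 45.3 and 47.9 in knockouts (−1.83, SE 0.17, adjusted p 4.7e-05). Ero1a, which oxidises disulfides in the endoplasmic reticulum, was at 621, 375 and 363 CPM in controls and at 127, 150 and 159 in knockouts (−1.65, SE 0.17). Ndrg1, a stress-responsive differentiation gene, was at 861, 483 and 422 CPM in controls and at 124, 156 and 143 in knockouts (−2.07, SE 0.20). Control 1 was the highest in each, while the knockouts were close together and below every control. Fam162a, a mitochondrial protein, had even controls at 99.6, 101 and 109 CPM and knockouts at 42.9, 46.5 and 51.1 (−1.15, SE 0.11, adjusted p 4.7e-05). Among enzymes, Pkm (pyruvate kinase) was at 943, 732 and 779 CPM in controls and at 424, 451 and 489 in knockouts (−0.86). Ldha (lactate dehydrogenase) fell by 0.97, Eno1 (enolase) by 0.83, the glucose transporter Slc2a1 by 1.40 and the lactate transporter Slc16a3 by 1.66. All of these genes held.

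Members of the same list did not all fall. Hif1a fell by 0.38 and lost its call without any 1 knockout library. Car9 (−2.06) was called although its groups overlapped, with controls at 41.1, 26.6 and 8.02 CPM and knockouts at 5.08, 9.78 and 3.48. It lost its call without control 1, knockout 1 or knockout 3. Egln2 (0.42), Pfkfb2 (0.41) and Eno2 (0.65) rose, and each lost its call without knockout 2 and others. Vhl, Kdm3a, Bnip3l and Hif3a had log2 fold changes of 0.09, 0.04, 0.03 and 0.00 and did not pass the test. Against the mean of the controls, the list's median was 0.19, −0.12 and −0.10 log2 units in controls 1 to 3. It was −0.72, −0.73 and −0.68 in the knockouts and −0.41, −0.40 and −0.40 in the DMSO cultures, so the wild-type cultures with DMSO lay between both groups.

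**Figure D4:**
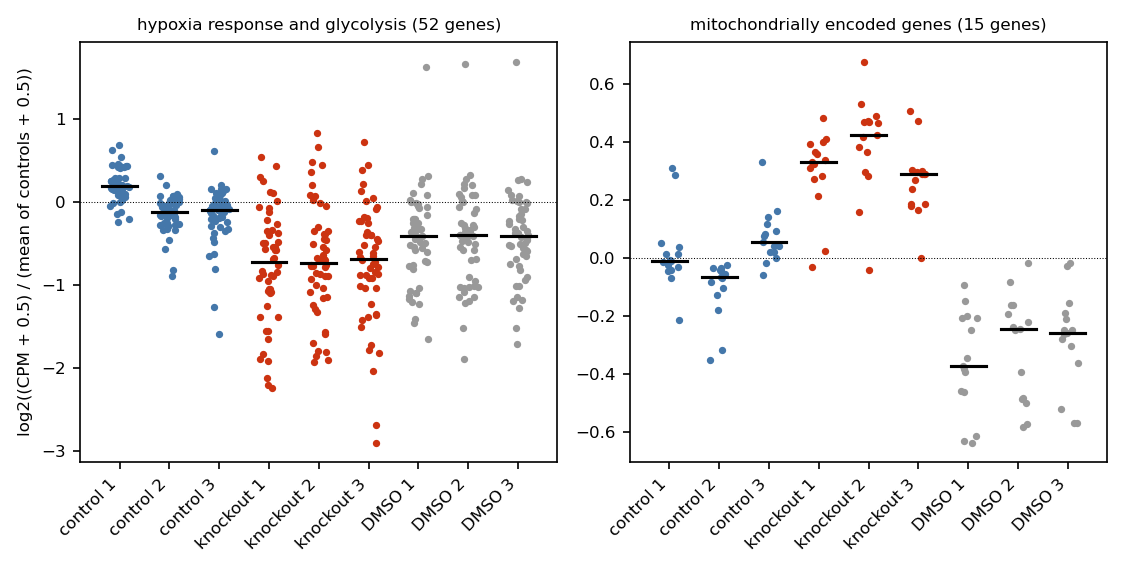
Log2 ratio of each member's CPM to the mean of the 3 controls (pseudocount 0.5 CPM) in each control, knockout and DMSO library, for the hypoxia and glycolysis list, 52 genes, and the 15 mitochondrially encoded genes. Bars are medians: −0.68 to −0.73 in knockouts and −0.40 to −0.41 with DMSO for the former, 0.29 to 0.42 and −0.25 to −0.37 for the latter.

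Genes encoded by mitochondrial DNA moved the other way. They encode subunits of the respiratory chain and ATP synthase and the mitochondrial ribosomal RNAs. In a list written after the gene results were seen, 12 of 15 tested rose (80%, beside 2.13% of all genes). The other 3 did not pass the test, and the median was 0.34. CYTB, COX3, ATP6, ND2 and ND1 held. Without knockout 2, 5 rose, and all 12 calls were lost in a fit that adjusted for Xist or used knockout 3 alone. The list's median against the mean of the controls was 0.33, 0.42 and 0.29 log2 units in knockouts 1 to 3. The summed level was 33408, 31930 and 34448 CPM in controls and 40583, 42923 and 39220 in knockouts. DMSO cultures were at 27423 to 28239 CPM, below the controls. CYTB, the cytochrome b gene, was at 3879, 3653 and 3695 CPM in controls and at 4730, 4998 and 4608 in knockouts (0.34, SE 0.05, adjusted p 0.00139). The changes are small but the control ranges were smaller, with a median of 0.16 log2 units.

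Several secreted regulators of insulin-like growth factors (IGFs) fell. IGF-binding proteins hold IGFs in the extracellular space, and the pappalysin proteases cut them to release the ligand. In a list written after the gene results were seen, 5 of 17 tested genes fell (29.4%, beside 4.4% of all genes). In it 1 rose (5.88%, beside 2.13%), the median was −0.41, and without knockout 2 there were 3 falls. Besides Igfbp4, Igfbp3 was at 94.9, 50.9 and 48.5 CPM in controls and at 12.9, 13.2 and 14.0 in knockouts (−2.29, SE 0.22, adjusted p 5.36e-05). Igfbp2 was at 21.4, 24.9 and 17.5 CPM in controls and at 8.11, 3.40 and 4.80 in knockouts (−1.97, SE 0.29, adjusted p 0.00123). These 3 held, and none of their groups overlapped. Igfbp5 fell by 0.87 from controls of 437, 194 and 257 CPM and lost its call without any 1 knockout. The protease Pappa2 (−1.55) lost its call without knockout 2. The insulin receptor Insr rose by 0.36 and lost its call without control 2 or any 1 knockout. Fibroblast markers fell beside these genes: of 8 tested, Dcn (−1.80), Lum (−2.37), Col1a1 (−1.16) and Thy1 (−3.03) fell. Dcn was at 57.9 to 79.8 CPM in controls and 13.9 to 24.4 in knockouts, and its part in the IGF-binding protein falls was not tested.

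Skint proteins are relatives of butyrophilins, and Skint1 in thymic epithelium is known for selecting the gamma-delta T cells of the epidermis. In a list written after the gene results were seen, 8 were tested. Of these 3 rose (37.5%, beside 2.13% of all genes) and 1 fell (12.5%, beside 4.4%), with a median of 0.06. Skint7 (chr4:111972924-111988260) was at 82.8, 84.1 and 81.0 CPM in controls and at 140, 154 and 148 in knockouts (0.82, SE 0.09, adjusted p 9.67e-05), and at 171 to 208 CPM with DMSO. Skint3 (chr4:112232245-112300468) was at 7.99, 7.48 and 3.94 CPM in controls and at 21.7, 25.2 and 20 in knockouts (1.77, SE 0.26, adjusted p 0.00111), and at 5.20 to 7.79 CPM with DMSO. Both were separate from the controls and held. They differ in that DMSO cultures stood above the knockouts for Skint7 and at the control level for Skint3. Skint9 rose by 0.61 and lost its call without knockout 2 or 3. Skint4 fell by 0.66 and lost its call without control 3 or any 1 knockout. Skint genes lie in 1 cluster of close copies, so reads may be shared among them.

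Guanylate-binding proteins are interferon-inducible GTPases that attack the membranes of intracellular pathogens. Of 11 tested, 5 rose (45.5%, beside 2.13% of all genes) and the other 6 did not pass the test, with a median of 0.46. This list too was written after the gene results were seen, and 3 rose without control 1 or without any 1 knockout. Gbp6 was at 111, 153 and 129 CPM in controls and at 216, 204 and 223 in knockouts (0.69, SE 0.11, adjusted p 0.00195). Gbp10 (0.72) and Gbp8 (0.81) also held, while Gbp11 (0.87) and Gbp2 (0.46) did not. Gbp6, Gbp10, Gbp8 and Gbp11 are neighbours on chromosome 5 and similar in sequence. In the DMSO cultures Gbp6 was at 109 to 138 CPM, level with the controls, and Gbp8 at 94.2 to 125 CPM, at or above the knockouts' 75.0 to 95.8 CPM. Among Toll-like and NOD-like receptors and inflammasome genes, 1 of 43 rose (2.33%, near the 2.13% of all genes) and the other 42 did not pass the test (median −0.08). It was Nlrp1b, a sensor that activates caspase-1, at 50.9, 54.9 and 44.0 CPM in controls and at 88.6, 76.0 and 92.3 in knockouts (0.77, SE 0.12), and it held.

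Ligands of the TGF-beta and BMP family signal through paired kinase receptors and SMADs, and Id genes are their targets. Of 62 tested, 6 fell (9.68%, beside 4.4% of all genes) and 1 rose (median −0.11), and falls numbered 3 without knockout 1 and 2 without knockout 2 or 3. The target Id1 was at 52.4, 50.5 and 54.2 CPM in controls and at 23.9, 26.1 and 29.2 in knockouts (−1.0, SE 0.13, adjusted p 0.00054). Inhbb, which encodes the beta subunit of activin B, was at 78.6, 74.1 and 76.9 CPM in controls and at 129, 118 and 120 in knockouts (0.67, SE 0.09, adjusted p 0.000693). Both had tight controls and held. The targets Id3 (−0.75) and Id2 (−0.94), the ligand Bmp7 (−0.54), the receptor Acvr1b (−0.55) and the mediator Smad4 (−0.33) fell without holding. Bmp7 lost its call without knockout 2, and Id3 without knockout 1 or 3. Id2 lost it without control 1 or any 1 knockout, Acvr1b without control 1, knockout 2 or knockout 3, and Smad4 without control 2 or 3 or any 1 knockout.

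Fibroblast growth factors feed thymic epithelial growth through receptor tyrosine kinases. Of 27 genes tested, 1 rose (3.7%, beside 2.13% of all genes) and the other 26 did not pass the test (median −0.21). The receptor Fgfr1 was at 27.2, 21.5 and 21.7 CPM in controls and at 44.2, 50.03 and 45.9 in knockouts (0.98, SE 0.15, adjusted p 0.00127), with DMSO at 16.0 to 17.7 CPM. It held, and every knockout was above every other library shown. In the Hedgehog pathway, 15 genes, the co-receptor Gas1 was at 271, 228 and 278 CPM in controls and at 148, 140 and 157 in knockouts (−0.82, SE 0.10, adjusted p 0.000202). The receptor Ptch1 rose by 0.69 and lost its call without control 1 or 2 or any 1 knockout, and the other 13 did not pass the test. The fall and the rise were each 6.67% of the list, beside 4.4% and 2.13% of all genes. Of 25 genes of the Hippo pathway, Ccn1 (−0.41) and Ajuba (−0.50) fell (8% of the list, beside 4.4% of all genes). Both lost their calls without knockout 1, and the other 23 did not pass the test.

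Guidance molecules steer migrating cells and axons and act in the thymus on thymocyte traffic. Of 30 semaphorins, plexins and neuropilins, 4 fell (13.3%, beside 4.4% of all genes) and the other 26 did not pass the test (median −0.11). Falls numbered 2 without knockout 1 or 2. Sema4g was at 30.0, 35.7 and 36.9 CPM in controls and at 18.1, 18.2 and 17.1 in knockouts (−0.95, SE 0.16). Sema6d was at 123, 128 and 151 CPM in controls and at 91.1, 95.7 and 87.1 in knockouts (−0.57, SE 0.10). These ligands held without overlap. The ligand Sema3f (−0.37) lost its call without knockout 1 or 2, as did the receptor Plxna4 (−0.68), which also lost it without knockout 3, control 1 or control 3. Of 21 Eph receptors and ephrins, Epha2 fell by 0.80 (4.76% of the list, beside 4.4% of all genes). It lost its call without control 1 or any 1 knockout. Of 22 Slit, Robo, netrin and FLRT genes, the receptor Unc5c rose by 0.74 and Flrt3 fell by 0.79. Each was 4.55% of the list, beside 2.13% and 4.4% of all genes. Unc5c lost its call without control 1 or 2 or knockout 1 or 2, and Flrt3 without control 1 or any 1 knockout.

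Some genes of retinoid handling changed. Retinol is oxidised by dehydrogenases such as RDH10, carried by binding proteins, and its active product is degraded by CYP26 enzymes. Of 22 genes tested, 4 fell (18.2%, beside 4.4% of all genes) and 1 rose (4.55%, beside 2.13%), with a median of −0.13. Rdh10 was at 179, 170 and 204 CPM in controls and at 106, 110 and 104 in knockouts (−0.80, SE 0.09, adjusted p 0.000228). Cyp26a1 was at 16.5, 15.2 and 20.1 CPM in controls and at 7.62, 7.09 and 4.31 in knockouts (−1.46, SE 0.26, adjusted p 0.00379). These and Crabp1 held, so the listed calls that held cover synthesis, binding and breakdown. Rdh5, which rose by 1.29 without holding as given above, was not on this list and is not in its counts. The DMSO cultures lay on opposite sides, with Rdh10 at 53.4 to 61.0 CPM, below the knockouts, and Cyp26a1 at 34.2 to 40.3 CPM, above the controls. Dhrs3, a retinal reductase, rose by 0.71 and lost its call without any 1 knockout. Among 30 nuclear hormone receptors, the glucocorticoid receptor Nr3c1 (0.45) and the mineralocorticoid receptor Nr3c2 (0.79) rose. The vitamin D receptor Vdr (−0.96) and Nr4a1 (−0.49) fell. Rises and falls were each 6.67% of the list, beside 2.13% and 4.4% of all genes. None of these 4 calls held, and all of them were lost without knockout 2.

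Single genes of G protein signalling fell. RGS proteins speed the shut-off of G proteins, and phosphodiesterases degrade cyclic nucleotides. Of 38 tested, 5 fell (13.2%, beside 4.4% of all genes) and the other 33 did not pass the test (median −0.23). Falls numbered 3 without knockout 1 or 2. Rgs4 was at 608, 700 and 793 CPM in controls and at 493, 480 and 469 in knockouts (−0.56, SE 0.09). Rgs2 was at 70.0, 44.8 and 73.7 CPM in controls and at 29.3, 27.4 and 32.2 in knockouts (−1.10, SE 0.17). Rgs11 (−1.65) held with these, and Pde2a (−0.75) and Rgs3 (−0.56) did not. In the DMSO cultures Rgs4 was at 246 to 291 CPM and Pde2a at 9.22 to 11.5 CPM, below both groups. Of 63 neurotransmitter receptors, 4 fell (6.35%) and 1 rose (1.59%), near the 4.4% and 2.13% of all genes. The median was −0.35, and 2 fell without control 3, knockout 1 or knockout 3. Htr7, a serotonin receptor, was at 54.8, 48.1 and 71.7 CPM in controls and at 32.1, 34.0 and 33.5 in knockouts (−0.82, SE 0.15). It held with Chrnd, while Chrna4 (−1.99), Grin2c (−0.60, overlapping groups) and Grm8 (0.96) did not.

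Single transcription factors fell. Among 71 Sox, Fox, Gata and Klf factors 6 fell (8.45%, beside 4.4% of all genes) and 1 rose (1.41%, beside 2.13%). The median was −0.04. Klf2, a zinc finger factor of quiescent cells, was at 25.8, 32.3 and 41.8 CPM in controls and at 12.2, 8.68 and 10.1 in knockouts (−1.70, SE 0.21, adjusted p 0.000335). Klf4, a factor of squamous differentiation, was at 279, 209 and 291 CPM in controls and at 149, 159 and 165 in knockouts (−0.73, SE 0.11). Foxj1, the master factor of motile cilia, was at 35.8, 32.2 and 57.1 CPM in controls and at 19.8, 18.4 and 17.7 in knockouts (−1.17, SE 0.20). These 3 and the TGF-beta-induced Klf10 (−0.77) held. Klf6 (−0.39) and Klf13 (−0.48) fell, losing their calls without any 1 knockout and, for Klf13, without control 1. Klf12 rose by 1.08 and lost its call without knockout 2. Among 86 homeobox factors outside the Hox clusters, 7 fell (8.14%, beside 4.4% of all genes). The other 79 did not pass the test (median −0.28). The count of falls was 1 without knockout 1 or 2, 3 without control 1, control 3 or knockout 3, and 4 without control 2. Nkx6-2 was the one that held, at 28.8, 30.7 and 25.8 CPM in controls and 14.2, 12.6 and 10.9 in knockouts (−1.19, SE 0.18, adjusted p 0.0013). Nkx2-6 (−0.94), Irx3 (−1.02), Cdx1 (−0.43), Meis3 (−0.64) and the low-level Pax4 also fell.

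At the cell surface, single gap junction genes and water channels fell. Connexins form channels between neighbouring cells, and desmosomes hold epithelia together. Of 30 tested, 4 fell (13.3%, beside 4.4% of all genes) and the other 26 did not pass the test (median −0.04). Falls numbered 2 without knockout 1 or 2. Gja4 was at 24.4, 20.6 and 23.7 CPM in controls and at 8.28, 8.46 and 5.67 in knockouts (−1.63, SE 0.22, adjusted p 0.000518). Gja1 was at 158, 81.7 and 62.8 CPM in controls and at 37.5, 32.0 and 29.8 in knockouts (−1.61, SE 0.25). Both held, although the controls of Gja1 spanned 1.30 log2 units. Gjb2 (−0.69) and the desmoglein Dsg1a (−0.71) did not hold. Among keratins used as epithelial markers, Krt14 was at 144, 73.6 and 65.4 CPM in controls and at 35.3, 36.9 and 40 in knockouts (−1.34, adjusted p 0.00252). DMSO cultures held 34.1 to 40.8 CPM of Krt14, beside the knockouts. The keratin markers Krt5 (−0.10) and Krt8 (0.02) did not pass the test.

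Of 53 genes for water, chloride and bicarbonate transport, 7 fell (13.2%, beside 4.4% of all genes) and 1 rose (1.89%, beside 2.13%). The median was −0.26, and 4 fell without control 1, knockout 1 or knockout 3. Aqp3, a channel for water and glycerol in squamous epithelia, was at 121, 86.4 and 76.8 CPM in controls and at 22.4, 32.3 and 28.3 in knockouts (−1.79, SE 0.17, adjusted p 5.36e-05). Aqp5, the water channel of secretory glands, was at 128, 115 and 92.7 CPM in controls and at 45, 49.96 and 61 in knockouts (−1.12, SE 0.14). Aqp4 (−1.59) and the bicarbonate transporter Slc4a8 (−0.93) held with them, and Clca3a1 rose by 1.08 and held. Slc4a8 was at 70.5 to 87.2 CPM with DMSO, at or above the controls, and Aqp3 was at 55.6 to 58.1 CPM, between the groups. Of 58 genes of mucin-type glycosylation, 5 fell (8.62%, beside 4.4% of all genes) and the other 53 did not pass the test (median −0.07). Without 1 library there were between 1, without knockout 1, and 5. Galnt6, which starts mucin sugar chains, was at 28.1, 13.2 and 20.8 CPM in controls and at 4.91, 2.62 and 4.03 in knockouts (−2.43, SE 0.31, adjusted p 0.000382). It held, and Galnt14, Galnt12, St3gal2 and B3gnt9 did not.

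Fatty acid-binding proteins ferry fatty acids in the cytosol. In a list written after the gene results were seen, 4 of 9 tested fell (44.4%, beside 4.4% of all genes). All of them held, and the other 5 did not pass the test (median −1.94). Fabp4 was at 99.95, 94.6 and 133 CPM in controls, at 31.4, 41.9 and 44.0 in knockouts and at 12.5 to 22.3 with DMSO (−1.50, SE 0.15, adjusted p 7.54e-05). Pmp2, its neighbour on chromosome 3, was at 24.4, 30.3 and 57.3 CPM in controls and at 5.52, 7.72 and 8.0 in knockouts (−2.42, SE 0.29). Fabp6 fell by 1.94 and Fabp5, the form of squamous epithelia and also next to Fabp4, by 0.69. The other adipocyte markers listed, Adipoq, Plin1 and Cidec, were at no more than 1.05 CPM in any of the 6 libraries.

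Of 41 genes of fatty acid and triglyceride synthesis 3 rose and 3 fell (7.32% each, beside 2.13% and 4.4% of all genes), with a median of −0.07. Scd1, the stearoyl-CoA desaturase, was at 223, 173 and 190 CPM in controls and at 97.2, 101 and 100 in knockouts (−0.98, SE 0.10, adjusted p 6.3e-05). The desaturase Fads1 was at 42.2, 45.2 and 51.2 CPM in controls and at 22.1, 22.97 and 28 in knockouts (−0.94, SE 0.15). Both held. The lipid droplet coat Plin2 (−1.03) lost its call without control 1 or 2 or any 1 knockout. The lipases Pnpla2 (0.58) and Lpl (0.60) and the elongase Elovl6 (0.62) rose. Pnpla2 lost its call without knockout 3, Lpl without knockout 2, and Elovl6 without control 2, knockout 1 or knockout 2. Without knockout 2, 1 gene of the list rose.

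Of 37 sphingolipid genes, 3 rose (8.11%, beside 2.13% of all genes) and 2 fell (5.41%, beside 4.4%). The median was −0.04, and all 3 rises were lost without knockout 2. The phosphatase Sgpp2, at 3.75, 5.00 and 9.60 CPM in controls and at 0.883, 1.14 and 1.29 in knockouts (−2.48, SE 0.49), held. Sgpl1, the lyase that destroys sphingosine phosphate, was at 1307, 1528 and 1262 CPM in controls and at 1844, 1831 and 1747 in knockouts. It rose by 0.39 and lost its call without knockout 2. Cers6 (0.57) and Sphk1 (0.39) rose and Sgpp1 fell by 0.32 without holding. Of 46 genes of eicosanoid synthesis and reception 4 fell (8.7%, beside 4.4% of all genes) and 2 rose (4.35%, beside 2.13%). The median was −0.27. Falls numbered 1 without any 1 knockout, and both rises were lost without control 3 or any 1 knockout. Ptgs2, the inducible cyclooxygenase, was at 123, 111 and 125 CPM in controls and at 39.3, 72.6 and 56.2 in knockouts (−1.11, SE 0.17, adjusted p 0.00139), and it held. The leukotriene receptor Ltb4r2 (−2.02), the prostacyclin receptor Ptgir (−1.65) and the phospholipase Pla2g4a (−0.54) fell without holding, and Alox12e (0.58) and Hpgds (0.68) rose without holding.

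Lysosomes report amino acids to the growth kinase complex mTORC through transporters and small GTPases. In a list written after the gene results were seen, 5 of 37 tested rose (13.5%, beside 2.13% of all genes). In it 1 fell (2.7%, beside 4.4%), and the median was 0.08. Slc36a1, a lysosomal amino acid transporter, was at 189, 258 and 191 CPM in controls and at 371, 380 and 341 in knockouts (0.76, SE 0.11, adjusted p 0.0013). Rragd, a small GTPase that recruits mTORC to lysosomes, was at 90.9, 96.9 and 76.3 CPM in controls and at 147, 133 and 127 in knockouts (0.61, SE 0.11). Sesn3, a stress-induced brake on the same pathway, was at 61.5, 76.5 and 61.0 CPM in controls and at 102, 103 and 103 in knockouts (0.61, SE 0.11). These 3 and the related Sesn2 (0.61) held without overlap, and Akt1s1 (0.41) did not hold. Ddit4, another brake that also belongs to the hypoxia list, was at 647, 638 and 621 CPM in controls and at 430, 374 and 369 in knockouts (−0.71, SE 0.08, adjusted p 0.000132).

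Iron genes changed in both directions. Of 26 tested, 4 rose (15.4%, beside 2.13% of all genes) and 2 fell (7.69%, beside 4.4%). The median was 0.01. Without knockout 2, 1 rose, and without control 1 or knockout 3, 2 rose. Heph, a ferroxidase of iron export, was at 24.7, 20.7 and 18.6 CPM in controls and at 8.58, 8.20 and 7.76 in knockouts (−1.39, SE 0.20, adjusted p 0.000966). Slc11a2, an iron importer, was at 72.9, 67.7 and 61.0 CPM in controls and at 105, 101 and 104 in knockouts (0.61, SE 0.10, adjusted p 0.00214). These 2 held. The mitochondrial importer Slc25a37 (0.49), the hormone Hamp (1.15) and the ferritin chain Ftl1 (0.35) rose, and transferrin, Trf (−1.12), fell. Trf lost its call without control 1 or any 1 knockout, and control 1, at 62.6 CPM, stood above the 35.4 and 25.1 CPM of the other controls. Falls numbered 1 without control 1 or any 1 knockout. Of 26 zinc transporters and metallothioneins, Slc30a2 rose (0.62) and Slc39a6 fell (−0.77). Each was 3.85% of the list, beside 2.13% and 4.4% of all genes. Both lost their calls without knockout 1 or 3, Slc30a2 also without knockout 2 and Slc39a6 also without control 1.

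Nucleotide and one-carbon genes were listed because the cultures met deoxyguanosine. Of 40 genes of purine and deoxynucleoside metabolism, Nt5e (−1.17) and Slc28a2 (−1.28) fell and Slc29a3 rose (0.56), with a median of −0.03. These are 5% and 2.5% of the list, near the 4.4% and 2.13% of all genes. None of these calls held, and all 3 were lost without knockout 2. Of 31 genes of serine, folate and one-carbon metabolism 1 fell (3.23%, beside 4.4% of all genes). The other 30 did not pass the test (median −0.03). Mthfd1l, a mitochondrial folate enzyme, was at 54.0, 44.4 and 40.1 CPM in controls and at 22.7, 28.9 and 23.7 in knockouts (−0.89, SE 0.16), and it held. Without control 2, 3 genes of that list fell, and 2 without control 3. Of 23 cytosolic tRNA synthetase genes Eprs rose (0.41), losing its call without knockout 1 or 2. It was 4.35% of the list, beside 2.13% of all genes. Of 36 glutathione, glucuronide and sulfate transferases Gstm3 fell (−3.06) from 2.06 to 3.91 CPM in controls, and lost its call without any 1 of the 6 libraries. It was 2.78% of the list, beside 4.4% of all genes.

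Of 27 p53 targets, 2 fell (7.41%, beside 4.4% of all genes) and 1 rose (3.7%, beside 2.13%), with a median of −0.08. Phlda3, an inhibitor of AKT, was at 89.1, 117 and 89.9 CPM in controls and at 57.6, 53.6 and 55.3 in knockouts (−0.84, SE 0.12, adjusted p 0.000959) and held. Plk2 fell by 0.46 and Ccng1 rose by 0.32, and both lost their calls without control 1 or any 1 knockout, Plk2 also without control 3. Of 31 imprinted genes 2 fell (6.45%, beside 4.4% of all genes) and the other 29 did not pass the test (median −0.16). Cdkn1c, a cell-cycle inhibitor, was at 45.5, 75.8 and 86.7 CPM in controls and at 27.3, 24.0 and 34.6 in knockouts (−1.29, SE 0.21) and held. H19, a noncoding RNA, fell by 1.60 from controls of 50.5, 31.5 and 17.6 CPM and lost its call without knockout 2. Of 62 splicing regulators 3 rose (4.84%, beside 2.13% of all genes) and 2 fell (3.23%, beside 4.4%). The median was 0.10, and all 3 rises were lost without any 1 knockout. Khdrbs3 was at 21.8, 21.1 and 19.4 CPM in controls and at 8.91, 9.45 and 8.52 in knockouts (−1.22, SE 0.19, adjusted p 0.0016) and held. Celf3 (−1.20) fell, and Hnrnph1 (0.32), Srsf11 (0.31) and the epithelial factor Esrp2 (0.43) rose, without holding.

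Of 56 tripartite motif proteins 2 fell (3.57%) and 1 rose (1.79%), near the 4.4% and 2.13% of all genes, with a median of 0.05. Trim29, an epithelial member, was at 417, 392 and 397 CPM in controls and at 311, 277 and 269 in knockouts (−0.51, SE 0.08, adjusted p 0.00211), and it held, unlike Trim32 (−0.64) and Trim39 (0.36). Of 22 clock genes Bhlhe41 rose by 0.41 (4.55% of the list, beside 2.13% of all genes). It lost its call without control 1 or 3 or any 1 knockout. Of 34 complement genes C4b fell by 1.03 (2.94% of the list, beside 4.4% of all genes) and lost its call without knockout 2. A pair of lists had no gene that passed edgeR's test. Among 21 whey acidic, secretoglobin and lipocalin genes, 2 were higher and 3 lower at an unadjusted p under 0.05, DESeq2 called 1 lower and limma-voom called none. Among 29 germ cell and meiosis genes, 1 was higher and 4 lower at an unadjusted p under 0.05, DESeq2 called 1 lower and limma-voom called none. Their controls were spread by medians of 1.62 and 1.15 log2 units, against 0.48 over all genes.

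**Figure D5:**
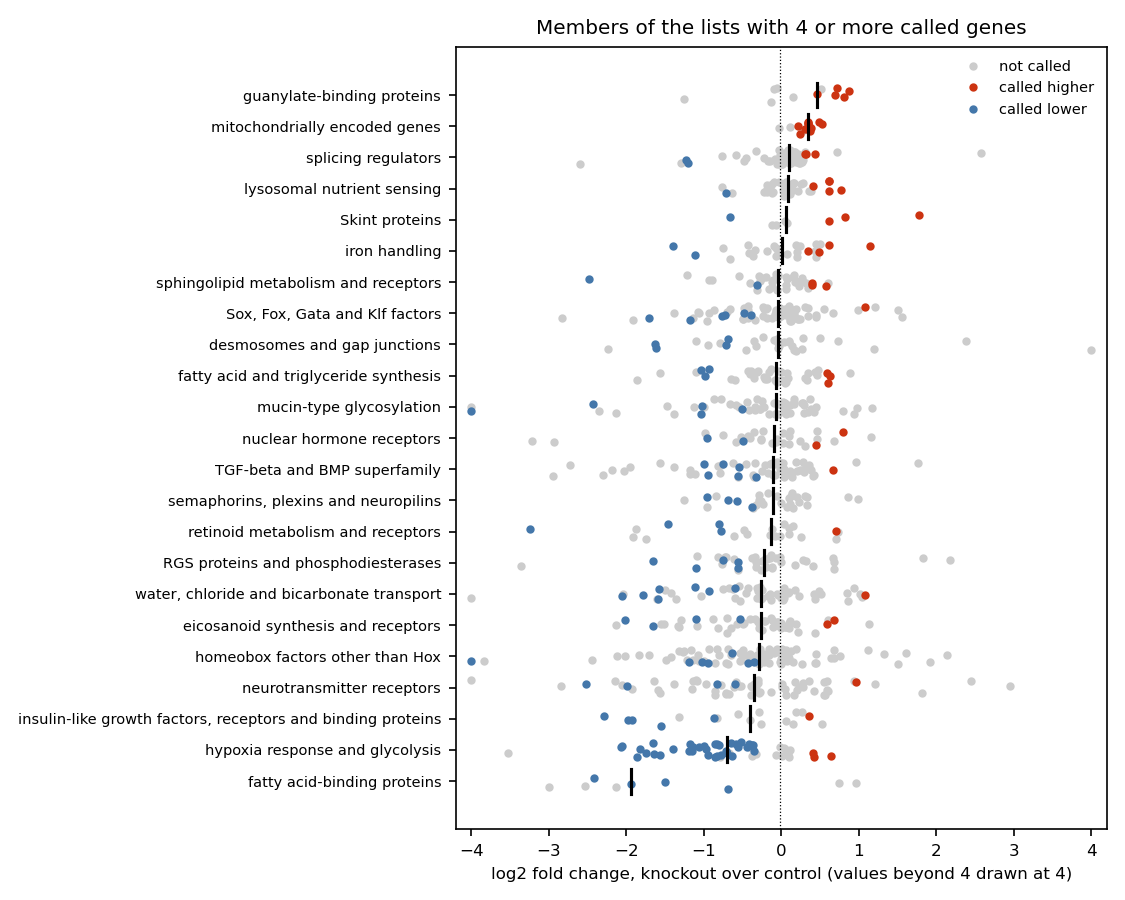
Log2 fold change, knockout over control, of each tested member of the 23 lists with at least 4 called genes. Coloured points rose or fell, grey points did not pass the test, black bars are list medians, the dotted line is the median of all genes tested, and values beyond 4 are drawn at 4. The fatty acid-binding and hypoxia lists have the lowest medians, −1.94 and −0.71.

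By position, calls were spread over the chromosomes, with 1.53% to 3.06% of tested genes rising and 3.19% to 6.23% falling on each autosome. On the X chromosome 10 of 576 tested genes rose and 18 fell. A gene that fell had a neighbouring tested gene that also fell in 114 of 774 cases (14.7%), beside 8.55% of all positioned genes with such a neighbour. For rises it was 30 of 365 (8.22%), beside 4.13%. There were 9 runs of 3 or more adjacent tested genes that fell together. They included Serpinb7, Serpinb2 and Serpinb10 (chr1:107422689-107560742), the chemokines Ccl2, Ccl7 and Ccl11 (chr11:82035577-82062955), and Ifitm2, Ifitm1 and Ifitm3 (chr7:140954837-141010744). The MHC class II genes H2-Ob, H2-Ab1, H2-Aa and H2-Eb1 (chr17:34238905-34316674) fell by 0.25 to 1.48. Others were Fat2, Sparc and Atox1 (chr11:55250609-55461208), Cap1, Mfsd2a and Mycl (chr4:122859048-123002490), and Ptgir, Calm3 and Pnma8b (chr7:16906490-16948828). The remaining 2 held Pfkfb3 with 2 predicted genes, and Cdh8 with 2 neighbours. Enpep, Elovl6 and Egf rose side by side (chr3:129269177-129755322), as did Gbp10, Gbp6 and Gbp11 (chr5:105215699-105346476). Ccl11, Ifitm3, Enpep, Gbp6 and Gbp10 held, while none of the MHC class II genes of the run did. The Serpinb, Ccl, Ifitm, H2 and Gbp runs are of paralogs.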

How the data were processed

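RNA from sorted TECs was sequenced as 75-base read pairs from a kit that does not mark strand, per the labels' protocols. The authors deposited raw counts per gene, and the submitters' processing notes name featureCounts and mm10. How reads were aligned and how reads shared by similar genes were counted is not given in the sources used here. The 1312 rows without a symbol (0.657% to 0.743% of a library's counts) were left out.

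The comparison was fitted with edgeR 4.0.16 (R 4.3.3) on the 6 libraries with TMM scaling, filterByExpr (17731 genes kept, 8136 with a symbol not tested), a quasi-likelihood test and Benjamini-Hochberg adjustment at 0.05, two-sided. The 6 libraries alone were used because the DMSO and WM-3835 groups vary less than the controls. CPM are TMM-scaled over all 12 libraries. The code was tested on simulated data. No 2 replicates of a group agreed within sampling noise. Positions of 17506 tested genes (98.7%) came from RefSeq on GRCm38.p6, the assembly of mm10.

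Members and lists were chosen with earlier results of these data known, and 7 lists were drawn up with the results of single genes in view. Named genes were those called with mean log2 CPM of at least 1, groups that did not overlap, a change above the range of the controls and no earlier description: the 12 largest rises and falls and the 6 smallest adjusted p per direction. Of each list, up to 4 called members were taken, and other called members are named with their values; a few genes that were counted are not reported here by name. Of the genes called, 327 rises and 652 falls met the criteria. Precision rests on depth and, more, on replicate spread.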

Additional observations from a re-analysis of the deposited data

How the results depend on the processing

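Every setting that could test a call gave it the same sign, which is little evidence of stability because the groups do not overlap in 376 rises and 773 falls. The settings were upper-quartile or RLE scaling, DESeq2 1.42.0, limma-voom 3.58.1 with and without quality weights per library, no filter, all 12 libraries, and without each library. A filter of CPM over 1 in 3 libraries left 1145 calls that could be tested. Against 377 rises and 780 falls, all 12 libraries in 1 fit gave 1142 and 1504, DESeq2 656 and 1125, limma-voom with quality weights 570 and 967, limma-voom 417 and 644, no filter 548 and 981, the filter on CPM 393 and 850, RLE 394 and 773, and upper-quartile scaling 318 and 855. With Xist as a covariate the counts were 10 and 56, and with knockout replicate 3 as the only knockout library 9 and 72; both leave fewer degrees of freedom. Leaving out 1 library gave 89 to 409 rises and 353 to 751 falls. Over all tested genes, deviations of same-numbered cultures from their group means had correlations of 0.0015, 0.0074 and 0.021. Every gene weighed the same there, noisy ones included, so these values cannot decide whether the numbers pair cultures. With a replicate block 295 genes rose and 677 fell. Of 202 named or listed genes, 55, 39 and 35 lost their call without controls 1 to 3 and 82, 95 and 71 without knockouts 1 to 3. Adjusting for Xist ended 175 of these calls and the lone knockout 3 ended 170. The corresponding numbers were 27 for limma-voom, 31 for the replicate block, 8 for upper-quartile scaling, 7 for quality weights, 3 for DESeq2, 1 for no filter and 0 for RLE scaling, all 12 libraries or the CPM filter. Of 84 counts per list and direction, 61 moved by over 1.5 times after adjustment for Xist, 61 in the fit on the lone knockout 3, 18 to 42 without 1 library, 41 with all 12 libraries and 28 with DESeq2. For lists with at least 4 falls, DESeq2 gave 10 in mucin-type glycosylation against 5, and all 12 libraries gave 12 there, 13 against 6 for TGF-beta and BMP, 9 against 4 for eicosanoids and 8 against 5 for the IGF list. limma-voom gave 4 against 7 for water and ion transport, 3 against 5 for mucin-type glycosylation, and 2 against 4 for both eicosanoids and neurotransmitter receptors. The cause of these shifts was not tested. A planned check of promoter CpG content was void, because promoters were found for 75.8% of tested genes, 72.9% of rises and 76.4% of falls, so its 2 alternatives were not run. Depth limits genes near the low end: 3 counts correspond to 0.0707 to 0.111 CPM in the 6 libraries.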
